A study of Mus musculus with 41 samples.

Results

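The genes of the transforming growth factor beta (TGF-beta), bone morphogenetic protein (BMP) and activin pathway were followed in mouse malignant mesothelioma, a tumor of the serosal lining of the chest. The set held 44 genes chosen by name and by role, with earlier results of these data known. It comprised 15 ligands, 9 receptors, 8 Smads, 4 Id genes, 5 secreted antagonists, 1 protease and 2 latency proteins. All 44 were found among the 27197 genes of the count table.

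Mesothelioma was induced in young adult mice of mixed FVB, Bl6 and 129Ola background, carrying conditional alleles, by intrathoracic injection of an adenovirus carrying Cre under the CMV promoter, which is not restricted to one cell type, and the mice received cyclosporine A around the injection. BNC cell lines (Bap1-/-;Nf2-/-;Cdkn2ab-/-; JB81, JB91 and JB97) and NC cell lines (Nf2-/-;Cdkn2ab-/-; JB84, JB87 and JB93) were early-passage cultures grown from such tumors with serum, EGF and hydrocortisone. Loss of Nf2 and Cdkn2ab was therefore common to both groups, and Bap1, a nuclear deubiquitinase, was the allele that separated them. Per the study, Cdkn2ab mice lacked Ink4a and Ink4b from the germline, and only Arf was conditional. The other 9 libraries were whole tumors, labelled as 5 BNC and 4 NC tumors, but their column names did not show which was which, so the 9 were taken as one mixed group. Deposited totals ran from 12377675 to 23936922 reads in the 6 lines and from 8158740 to 21851974 in the 9 tumors. With 3 reads taken as the limit of detection, these totals set floors of 0.125 to 0.242 counts per 1000000 scaled reads (CPM) in the lines and of 0.137 to 0.368 CPM in the tumors, for counting error only.

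Ligands of this family are secreted dimers that bring together type II and type I receptor serine kinases at the cell surface. The activated type I receptor phosphorylates Smad2 and Smad3 for TGF-beta and activin, or Smad1, Smad5 and Smad9 for BMPs, and these enter the nucleus with Smad4, where BMP signals raise the Id genes. Extracellular antagonists bind the ligands, latency proteins hold TGF-beta in the matrix, and TGF-beta is known in mesothelial cells for driving a switch towards a fibroblast-like state.

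Before the comparisons, the lines were set against each other and against their labels. JB81 and JB91, both BNC, differed by more than 2-fold in 5 of the 10511 genes that reached 100 reads. JB84 and JB93, both NC, differed so in 8 of 10545. The other pairs within a group differed in 1487 to 2391 genes, and JB97 and JB87, from opposite groups, in 1291. Counts of the close pairs still varied more than sampling of reads would give, with a mean chi-square per gene of 16.3 for JB81 and JB91 and of 24.1 for JB84 and JB93 against 1 for sampling alone. This excess over read sampling does not show that the lines of a close pair are independent. They were kept as separate samples, and the counts of calls and the members under an adjusted p of 0.05 are also given with the reads of each close pair summed, which leaves 2 samples per group. Nothing in the labels says whether close lines came from one tumor, so p-values measure the spread between these cultures only.

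Bap1 was lower in every BNC line, at 43.2, 44.1 and 38.0 CPM in JB81, JB91 and JB97 against 61.5, 60.6 and 64.3 CPM in JB84, JB87 and JB93 (log2 fold change -0.57, SE 0.13, edgeR adjusted p = 0.039). Nf2, deleted in both groups, lay between 88.3 and 122.7 CPM in all 6 lines. Cre removes only the part of Bap1 and Nf2 between lox sites, and reads were counted per gene. These levels therefore do not measure how complete the deletion was. Cdkn2a reached at most 12 reads and Cdkn2b at most 1 read in any line.

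Mesothelial markers went against the labelled tissue in a pair of lines. The summed level of 10 mesothelial markers was 136.8 CPM in JB81 and 136.6 CPM in JB91, nearly all of it from Wt1, against 949.7 CPM in JB97 and 3188, 2662 and 3328 CPM in JB84, JB87 and JB93. Msln, which encodes mesothelin, stood at 0.221 and 0.442 CPM in JB81 and JB91, and Calb2 had no read in any line. Krt18 and Krt8, the keratins of simple epithelia, fell in BNC lines (log2 fold change -8.12, SE 1.29, adjusted p = 0.019, and -6.74, SE 1.63, adjusted p = 0.046). The 6 fibroblast markers summed to 6278, 6892 and 4268 CPM in JB81, JB91 and JB97. In JB84, JB87 and JB93 the sums were 1653, 4971 and 1815 CPM. These sums were mostly collagen. Col1a1 alone was at 6161, 6771, 3597 and 3943 CPM in JB81, JB91, JB97 and JB87. In JB84 and JB93 Col3a1 was on top, at 922 and 973 CPM. Endothelial markers summed to 1.51, 1.64 and 8.04 CPM in JB81, JB91 and JB97 against 61.9, 53.0 and 60.6 CPM in JB84, JB87 and JB93, where Kdr made up nearly all while Pecam1 and Cdh5 reached at most 0.258 CPM in any line. Leukocyte markers summed to at most 5.02 CPM and lung epithelial markers to at most 0.412 CPM in any line. The part of these differences in the pathway results was not tested.

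Of the 44 genes, 40 passed the filter on low counts in the lines, which a gene could also pass through the group where it was high. Bmp2, Bmp5, Bmp7 and Gdf5 did not, and Bmp5 and Bmp7 had at most 3 reads in every line. At an adjusted p under 0.01 and more than 2-fold, the thresholds the study set for its DESeq2 test, edgeR called 1 of the 40 (2.5%, against 1.10% of all 12376 genes tested). This was Ltbp1. At an adjusted p under 0.05, 5 were higher in BNC (12.5%, against 5.78% of all genes) and 1 was lower (2.5%, against 8.45%). The groups did not overlap in 21, with BNC above NC in 16 (40%, against 20.1%) and below in 5 (12.5%, against 21.4%). A positive log2 fold change was fitted for 31 of 40 (77.5%, against 49.8%), and the median over the 40 was 0.72 against -0.0023 over all genes. These shares were not tested against the other genes. Nog, Bmpr1b and Grem1, among the 16, passed the filter only with BNC lines, where they were high. Bmp3 and Ltbp2, among the 31, did so too, and Gdf6, among the 5, passed only with NC lines. With close pairs summed, edgeR left 0 of 41 members under an adjusted p of 0.05. It left 0 of all genes there, so this count is no result about the members. DESeq2, the tool the study used for differential expression, called 9 of 41 members on the 6 lines (22%, against 9.91% of all genes). With close pairs summed it called 3 of 44 (2.83% of all genes) and left 5 under an adjusted p of 0.05 (11.4%, against 4.65%). Its 9 calls on the 6 lines were Ltbp1, Fst, Inhbb, Id2, Tgfb3, Bmp4, Smad9, Grem1 and Chrd, and Tgfb1, Tgfbr1, Bmpr1a, Bmpr1b, Smad1, Smad5, Id3 and Nog also had an adjusted p under 0.05 by DESeq2. With close pairs summed its 3 calls were Ltbp1, Fst and Gdf6.

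**Figure D1:**
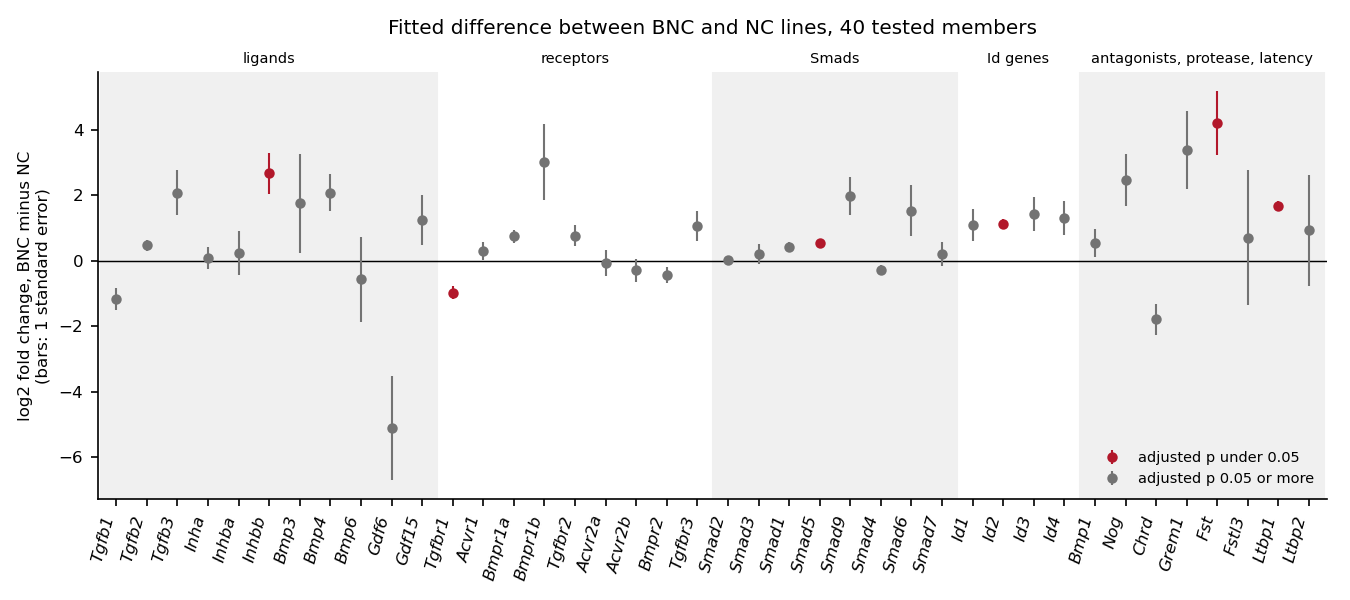
Fitted log2 fold change of each of the 40 tested members, BNC minus NC, with bars of 1 standard error and members ordered by role. The 6 members with an adjusted p under 0.05 are in red, 5 above 0 and Tgfbr1 below it, and the widest bars belong to Fstl3, Ltbp2 and Gdf6, where lines of one group differed most.

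The proximal promoter of the called gene and that of the one that fell are shown because their levels separated the groups. Each run is the 250 bases before a RefSeq transcription start (GRCm38.p6), 5′ to 3′ on the gene's strand, and none of them overlapped an annotated exon. Capitals mark GGCGCC, a BMP-type Smad motif that reads the same on both strands, and GTCTG with its reverse complement CAGAC, the Smad box. Ltbp1 has 2 starts in the table, the second inside the gene:
Ltbp1, first start, chr17:75005279-75005528, plus strand: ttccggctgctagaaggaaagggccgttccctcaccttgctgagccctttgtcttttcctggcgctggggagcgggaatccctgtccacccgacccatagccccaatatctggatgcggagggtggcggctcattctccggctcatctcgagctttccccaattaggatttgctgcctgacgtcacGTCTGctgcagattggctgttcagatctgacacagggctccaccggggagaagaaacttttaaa
Ltbp1, second start, chr17:75178531-75178780, plus strand: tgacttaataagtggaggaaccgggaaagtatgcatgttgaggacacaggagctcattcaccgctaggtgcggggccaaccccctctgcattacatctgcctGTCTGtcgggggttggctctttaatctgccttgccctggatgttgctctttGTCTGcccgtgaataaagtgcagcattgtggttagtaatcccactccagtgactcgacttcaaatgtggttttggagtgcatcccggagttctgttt
Tgfbr1, first start, chr4:47352972-47353221, plus strand: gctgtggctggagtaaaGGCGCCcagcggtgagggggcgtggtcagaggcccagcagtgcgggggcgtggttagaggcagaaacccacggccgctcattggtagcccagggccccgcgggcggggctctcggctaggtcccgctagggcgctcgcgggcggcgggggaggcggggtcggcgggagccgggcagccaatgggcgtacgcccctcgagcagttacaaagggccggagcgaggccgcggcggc
The Smad box occurred once before the first and 2 times before the second Ltbp1 start, and GGCGCC occurred once before the first Tgfbr1 start. A second Tgfbr1 start, not shown, had 1 Smad box and 0 GGCGCC in its window. Over all 32851 windows of this length, 42.2% held GTCTG or CAGAC and 9.59% held GGCGCC, and over the 37 windows of the 30 members with an entry these were 51.4% and 24.3%. A match of these letters is no evidence that a factor bound there.

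Ltbp1 (chr17:75005568-75392512) encodes a protein that tethers latent TGF-beta to the extracellular matrix. Its level was 529, 546 and 566 CPM in JB81, JB91 and JB97 and 155, 188 and 168 CPM in JB84, JB87 and JB93. All BNC lines stood above all NC lines, by more than the spread in either group. The log2 fold change was 1.68 (SE 0.14, adjusted p = 0.00564). It was the most abundant gene of the antagonist and latency class per kilobase of exon, at a mean of 33.6 CPM per kb. With close pairs summed the fitted value was 1.65 (SE 0.29) with an edgeR adjusted p of 0.29, while DESeq2 called Ltbp1 there too. Reads were counted per gene, so the products of its separate starts could not be told apart.

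Ltbp2, a matrix protein of the same family that does not bind latent TGF-beta, behaved differently among the lines. It stood at 15.3 CPM in JB97 and 9.15 CPM in JB87, and between 0.136 and 1.73 CPM in the other 4. The groups overlapped (log2 fold change 0.93, SE 1.69, adjusted p = 0.71).

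Among the secreted antagonists, Fst (chr13:114452290-114458951), which encodes the activin-binding protein follistatin, showed the highest fold. It was at 137, 139 and 146 CPM in JB81, JB91 and JB97, and at 2.10, 18.95 and 2.22 CPM in JB84, JB87 and JB93. The BNC lines were alike, while JB87 lay well above the other NC lines. The log2 fold change was 4.20 (SE 0.97, adjusted p = 0.041), with 6.04 when JB87 was left out and 3.77 with close pairs summed (adjusted p = 0.32).

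Nog and Grem1, both BMP antagonists, were low, with every BNC line above every NC line, and did not pass the edgeR test. Both passed the count filter only with BNC lines. Nog was at 2.39, 1.64 and 3.86 CPM in JB81, JB91 and JB97 against 0.271, 1.07 and 0.145 CPM in JB84, JB87 and JB93 (log2 fold change 2.45, SE 0.80, adjusted p = 0.087). Without JB87 the fit for Nog gave 3.68, but JB84 and JB93 held 4 and 3 reads, so this is no measured fold. Grem1 was at 2.57, 2.79 and 24.3 CPM against 0.543, 1.98 and 0.386 CPM (3.38, SE 1.19, adjusted p = 0.10), and JB97 stood far above every other line. Without JB97 the value for Grem1 was 1.51. Chrd, the BMP antagonist chordin, lay the other way, at 2.39, 1.86 and 1.39 CPM in JB81, JB91 and JB97 against 7.26, 3.13 and 9.17 CPM in JB84, JB87 and JB93 (-1.79, SE 0.48, adjusted p = 0.056). Fstl3, a follistatin relative, split both groups. It stood at 43.7 CPM in JB97 and 23.2 CPM in JB87, but at 0.177 CPM in JB81 and JB91. Bmp1, a protease that cleaves chordin and procollagens, was at 80.5 to 94.1 CPM in BNC lines and at 35.8 to 104 CPM in NC lines.

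**Figure D2:**
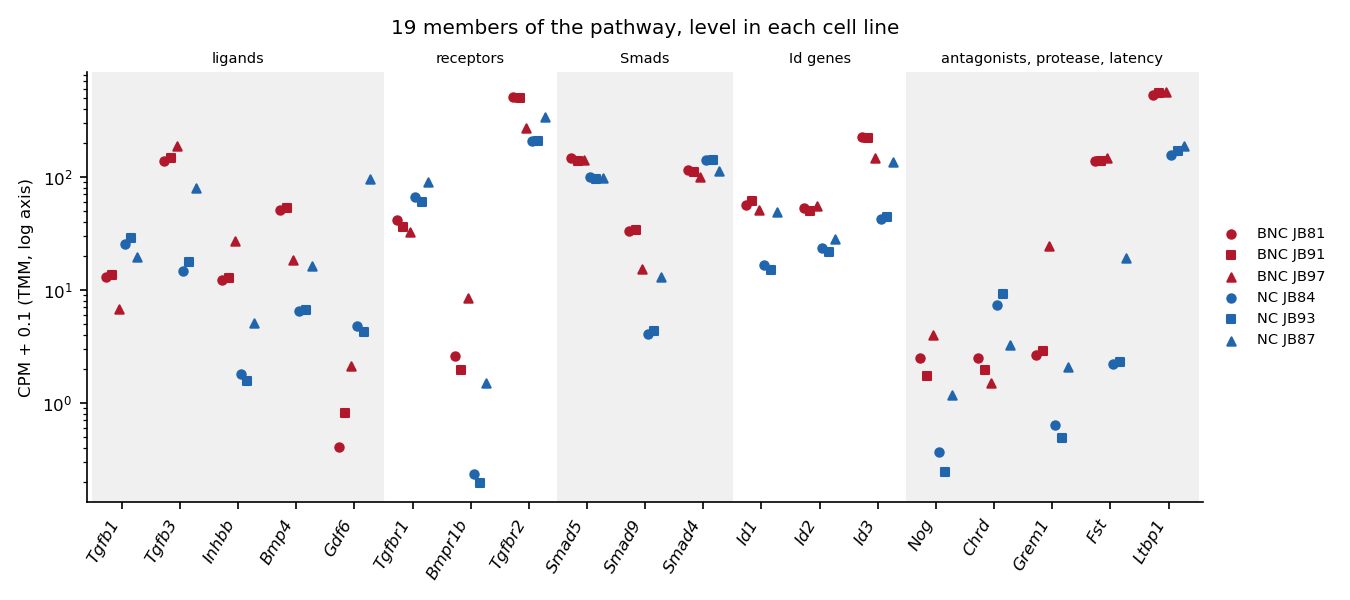
Level of 19 members in each of the 6 lines, as CPM + 0.1 on a log axis, with BNC lines in red and NC lines in blue. Circles and squares, which mark the close pairs, lie close together for most members, and the blue triangle (JB87) lies nearest to the BNC lines for most members, as for Fst at 18.95 CPM.

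Of the TGF-beta ligands, Tgfb3 had the highest level per kilobase of all ligands in the mean over the 6 lines (28.7 CPM per kb), but ranged from 4.31 to 54.9 CPM per kb and lay under Tgfb2 (13.9 to 24.5 CPM per kb) in JB84 and JB93. It was at 139, 146 and 186 CPM in JB81, JB91 and JB97 and at 14.6, 79.4 and 17.7 CPM in JB84, JB87 and JB93. The groups did not overlap, but JB87 kept the spread of NC lines wide (log2 fold change 2.08, SE 0.69, adjusted p = 0.091). Tgfb1 stood the other way, at 12.8, 13.4 and 6.65 CPM in the BNC lines against 25.4, 19.5 and 28.9 CPM in JB84, JB87 and JB93 (-1.16, SE 0.33, adjusted p = 0.064). Tgfb2 was at 103 to 142 CPM in BNC lines and 80.3 to 88.2 CPM in NC lines (0.47, SE 0.17, adjusted p = 0.11).

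Among activin and inhibin subunits, Inhbb (chr1:119415465-119422248), the beta B chain of activin B, was at 12.1, 12.7 and 26.8 CPM in JB81, JB91 and JB97. In JB84, JB87 and JB93 it was at 1.70, 5.03 and 1.45 CPM. The BNC values all exceeded the NC values (log2 fold change 2.67, SE 0.63, adjusted p = 0.043), and the value was 3.47 without JB87 and 2.59 with an adjusted p of 0.35 once close pairs were summed. Inhba, the beta A chain, overlapped, with JB97 at 51.4 CPM and JB87 at 42.2 CPM and the other 4 lines between 13.7 and 15.6 CPM. Inha, the inhibin alpha chain, stayed between 0.824 and 1.15 CPM.

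Of the 9 BMP and GDF ligands, 5 could be tested and none passed an adjusted p of 0.05. By DESeq2 on the 6 lines Bmp4 did so, while Gdf6 had no adjusted p, and with close pairs summed Gdf6 did so and Bmp4 did not. The edgeR fit gave an unadjusted p under 0.05 for Bmp4 and Gdf6. Bmp4 was at 50.9, 52.6 and 18.3 CPM in JB81, JB91 and JB97 and at 6.38, 16.1 and 6.47 CPM in JB84, JB87 and JB93. JB97 and JB87 nearly met, at 18.3 and 16.1 CPM (log2 fold change 2.08, SE 0.56, adjusted p = 0.059). Gdf6 had the lowest fitted value, -5.10 (SE 1.59, adjusted p = 0.080), which was -2.11 without JB87. JB87 was at 94.5 CPM, while JB84 and JB93 were at 4.68 and 4.15 CPM and the BNC lines at 0.310, 0.707 and 2.01 CPM. Bmp6 ranged from 0.398 to 13.2 CPM in BNC lines and from 4.94 to 8.54 CPM in NC lines. Bmp3 and Gdf15 overlapped between groups and did not exceed 3.89 CPM.

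Of the receptors, Tgfbr1 (chr4:47353222-47414931), the type I receptor for TGF-beta, was the only member lower in BNC lines at an adjusted p under 0.05. It was at 41.2, 36.2 and 32.3 CPM in JB81, JB91 and JB97 and at 66.0, 89.6 and 60.1 CPM in JB84, JB87 and JB93. The ranges did not meet (log2 fold change -0.97, SE 0.20, adjusted p = 0.033), and with close pairs summed the value was -1.10 with an adjusted p of 0.33. Its partner Tgfbr2, the type II receptor and the most abundant receptor per kilobase (mean 41.3 CPM per kb), was at 507, 499 and 270 CPM in the BNC lines. In JB84, JB87 and JB93 it was at 207, 337 and 209 CPM, so that JB87 exceeded JB97 and the groups overlapped (0.76, SE 0.33, adjusted p = 0.15).

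Bmpr1a and Bmpr1b, both BMP type I receptors, lay higher in BNC lines without passing the edgeR test. Bmpr1a was at 308, 289 and 193 CPM in JB81, JB91 and JB97 against 156, 170 and 148 CPM in JB84, JB87 and JB93 (log2 fold change 0.74, SE 0.21, adjusted p = 0.064). Bmpr1b was scarce, at 2.52, 1.86 and 8.29 CPM against 0.136, 1.40 and 0.0965 CPM (3.02, SE 1.16, adjusted p = 0.12), and 2 NC lines held 2 reads each. Its value was 2.09 without JB97. Without JB87 the fit gave 5.16, but both NC lines left lay under the limit of 3 reads, so this is no measured fold. The type II receptors Acvr2a and Bmpr2 overlapped between groups, with log2 fold changes of -0.06 and -0.44. Acvr2b did not overlap but stayed at 1.32 CPM or less (-0.30, SE 0.35, adjusted p = 0.55). The type I receptor Acvr1 and the coreceptor Tgfbr3 (betaglycan) overlapped, at 33.4 to 64.2 CPM and at 32.4 to 113 CPM over the 6 lines.

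The 3 Smads that carry BMP signals were above the NC lines in every BNC line. Smad5 (chr13:56703010-56742377) was at 148, 138 and 140 CPM in JB81, JB91 and JB97 and at 98.4, 97.2 and 94.6 CPM in JB84, JB87 and JB93. The spread within each group was small against the gap (log2 fold change 0.55, SE 0.12, adjusted p = 0.034). With library size as the only scaling the value was 0.41 with an adjusted p of 0.070, and with close pairs summed 0.55 with 0.51. Smad9 was at 33.2, 33.5 and 15.1 CPM against 4.003, 12.8 and 4.25 CPM (1.97, SE 0.58, adjusted p = 0.071, and 2.74 with an adjusted p of 0.0074 without JB87). Smad1 was at 45.6, 52.2 and 40.9 CPM against 32.9, 35.5 and 34.9 CPM (0.42, SE 0.15, adjusted p = 0.097).

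The Smads of TGF-beta and activin showed no such gap. Smad2 ranged from 58.6 to 65.2 CPM over all 6 lines (log2 fold change 0.02, SE 0.12, adjusted p = 0.92). Smad3 was at 171 CPM in JB97 and between 86.5 and 118 CPM in the others (0.21, SE 0.30). Smad4, the common partner and in the mean the most abundant Smad per kilobase (32.2 CPM per kb), was at 115, 109 and 99.0 CPM in JB81, JB91 and JB97 and at 140, 112 and 140 CPM in JB84, JB87 and JB93. Its groups overlapped (-0.28, SE 0.15, adjusted p = 0.23). In JB97 Smad3 exceeded Smad4, at 30.8 against 26.7 CPM per kb. The inhibitory Smad6 was at 36.0, 38.5 and 26.1 CPM in the BNC lines against 4.89, 26.7 and 3.72 CPM in JB84, JB87 and JB93, where JB87 passed JB97 (1.52, SE 0.78, adjusted p = 0.21). Inhibitory Smad7 overlapped between groups, at 14.5 to 31.9 CPM.

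The Id genes encode helix-loop-helix proteins that block differentiation factors and are direct targets of BMP Smads. All 4 had a positive fitted value, from 1.08 to 1.42 on the log2 scale, and 1 passed an adjusted p of 0.05. Id2 (chr12:25093799-25097140) was at 52.5, 49.9 and 54.7 CPM in JB81, JB91 and JB97 and at 23.4, 28.1 and 21.3 CPM in JB84, JB87 and JB93. The ranges were well apart (log2 fold change 1.11, SE 0.16, adjusted p = 0.015), and the value was 1.07 with an adjusted p of 0.32 when close pairs were summed. Id3, the most abundant Id gene per kilobase (mean 75.5 CPM per kb), was at 223, 221 and 147 CPM against 42.1, 135 and 43.8 CPM (1.42, SE 0.51, adjusted p = 0.11). Id1 was at 56.5, 61.5 and 50.8 CPM against 16.4, 48.7 and 14.9 CPM (1.08, SE 0.48, adjusted p = 0.17). In both genes JB87 came close to JB97 while JB84 and JB93 stayed low. Without JB87 the value for Id3 was 2.21 (adjusted p = 0.0024). Id4 did not exceed 6.64 CPM.

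The order of the lines was also counted. Among the 21 members whose groups did not overlap, JB87 was the NC line nearest to the BNC lines in 17 (81.0%), against 68.6% of 5140 such genes over the whole table. JB97 was the BNC line nearest to the NC lines in 7 (33.3%), against 61.3%. Over the genes without overlap, JB87 was thus mostly the nearest NC line, as among the members. Leaving out JB87 raised the members with an adjusted p under 0.05 from 6 to 24 of 41, among 51.9% of all genes, and those called from 1 to 13, with 19.7% of all genes called. Tgfb3 then stood at a log2 fold change of 3.30 (adjusted p = 0.00089) and Id1 at 1.86 (adjusted p = 0.0010). Leaving out JB97 gave 13 of 41 members under 0.05 (31.7%, against 25.4% of all genes). Leaving out any one of JB81, JB91, JB84 or JB93 gave 0 by edgeR, where 0.116% to 0.423% of all genes passed. Ltbp1 then had an adjusted p of 0.0521 to 0.0549. A number prefix in the column names, whose meaning the sources used here do not give, was shared by JB81, JB84 and JB87, and another by JB91, JB93 and JB97. Within both sets of lines and in the pooled fit, 32 of the 40 members had the same sign (80%, against 80.6% of all genes). For the 21 members without overlap this is fixed by the values themselves, and of the other 19 it held for 11 (57.9%, against 66.9% of all genes that overlapped). With the prefix as a covariate, Ltbp1 alone of the members kept an adjusted p under 0.05 (1.67, adjusted p = 0.033), where 2.20% of all genes did.

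**Figure D3:**
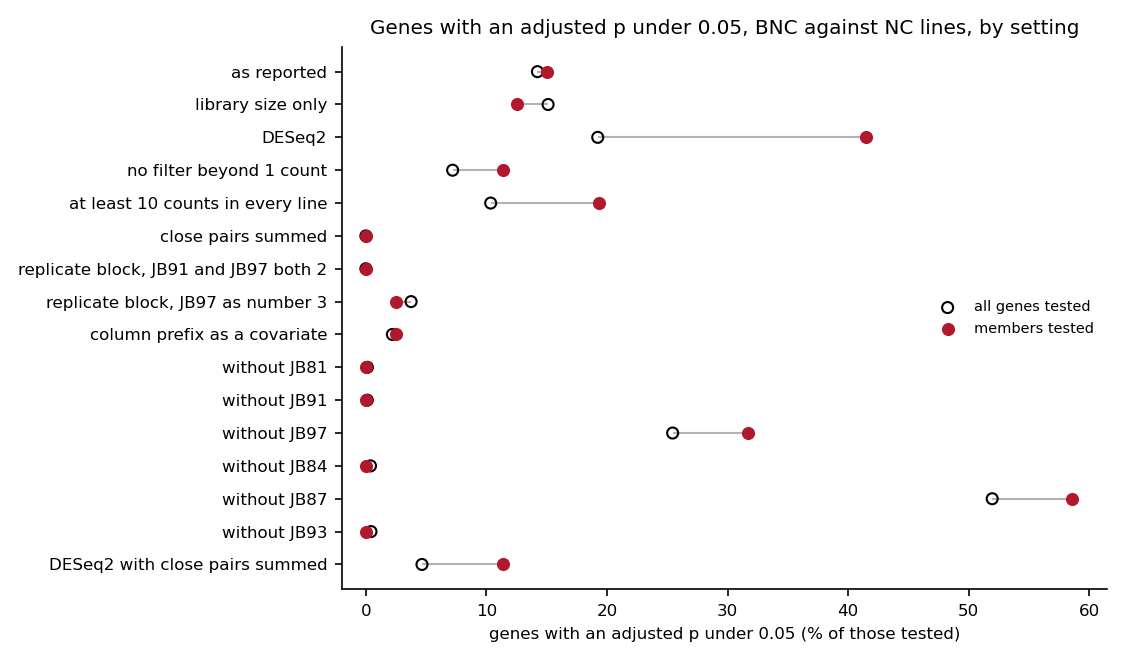
Percentage of genes with an adjusted p under 0.05 between BNC and NC lines under each setting, for members (red) and for all genes tested (open circles). Both are highest without JB87, at 58.5% of members and 51.9% of all genes, and both are 0 by edgeR with close pairs summed.

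Other genes of the pathway were read from lists drawn up by function, with earlier results of these data known. Of 70 further ligands, receptors, antagonists, activators and Smad regulators, 69 were in the table and 37 were tested. By edgeR 5 were higher and 3 lower in BNC lines at an adjusted p under 0.05, with a median log2 fold change of 0.21. Over all genes 5.78% were higher and 8.45% lower by this measure, so that the share of lower genes was near the background. Gdf11, a ligand close to myostatin, was at 40.2, 40.9 and 39.7 CPM in JB81, JB91 and JB97 against 14.4, 18.5 and 13.99 CPM in JB84, JB87 and JB93 (log2 fold change 1.37, SE 0.17, adjusted p = 0.011). Bambi, a decoy receptor that BMP signals raise, was at 8.77, 10.4 and 5.67 CPM against 2.85, 2.80 and 2.46 CPM (1.62, SE 0.32, adjusted p = 0.0285). Usp9x, which removes ubiquitin from Smad4, fell by 0.73 on the log2 scale (SE 0.13, adjusted p = 0.0246). Bmp8a, also among the 3 lower genes (adjusted p = 0.0165), stayed at 0.678 CPM or less, with at most 2 reads in any BNC line. It entered the test only through the NC lines, where it was high, so it had to differ to be tested.

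Genes that respond to the pathway were counted the same way, from lists likewise drawn up with earlier results known. Of 14 BMP response genes, among them the 4 Id genes, Smad6 and Smad7, 12 were tested and all 12 had a positive fitted value, with a median of 1.35, where 49.8% of all genes were positive. Of these, 3 were higher at an adjusted p under 0.05 (5.78% of all genes): Id2, Bambi and Hey1, a transcriptional repressor also known as a Notch target. Bambi was also counted among the further pathway genes, and Id2 among the members. Hey1 was at 19.4 and 18.5 CPM in JB81 and JB91, 1.29 CPM in JB97 and at most 0.659 CPM in NC lines (5.76, SE 1.43, adjusted p = 0.048). With at most 8 reads in any NC line, Hey1 entered the test only through the BNC lines, so it had to differ to be tested. Of 16 TGF-beta response genes, 12 had a positive value, with a median of 1.24. Snai2, a zinc-finger repressor of epithelial genes, rose (0.90, SE 0.13, adjusted p = 0.015), and Cdkn1a, the cell cycle inhibitor p21, fell by 1.09 (SE 0.26, adjusted p = 0.044). Over the 55 tested genes of these 3 lists that are not members, edgeR called 0 at an adjusted p under 0.01 and more than 2-fold (1.10% of all genes). DESeq2 called 10 of 73 (9.91% of all genes). With close pairs summed, edgeR left 0 of 57 of these genes under an adjusted p of 0.05, where 0 of all genes passed. DESeq2 then left 2 of 77 (4.65% of all genes).

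The 9 tumors were whole tissue and carried markers of other cell types. The 6 leukocyte markers summed to between 343.6 and 941.5 CPM in tumors, on a scale common to all 15 libraries, and to at most 4.70 CPM in lines. Endothelial markers summed to between 78.8 and 668.7 CPM in tumors and to at most 57.7 CPM in lines, where Kdr made up nearly all of the higher sums. Fibroblast markers summed to between 6667 and 28156 CPM against at most 6401 CPM. In tumor B2 the 5 lung epithelial markers summed to 45572 CPM, with Scgb1a1 on top, against at most 77.2 CPM in any other tumor. The part of these cell types in the levels of the pathway was not tested. The tumor columns carry one number prefix and the line columns others, so whatever the prefix stands for and the material cannot be told apart, and in bulk samples fewer cells of a type and less RNA per cell cannot be told apart either.

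All 44 members passed the filter when tumors were included. Several did so only with the tumors, among them Bmp2, Bmp5, Bmp7, Gdf5, Ltbp2 and Grem1. At an adjusted p under 0.01 and more than 2-fold, 11 were higher in tumors than in lines (25.0%, against 22.7% of all 14383 genes) and 1 was lower (2.27%, against 12.4%). The share of members higher in tumors was near that of all genes. Bmp2, Bmp5, Bmp7, Ltbp2 and Grem1, which entered the test only with the group where they were high, are among the 11. With close pairs of lines summed, 9 were higher and 1 lower (17.3% and 11.4% of all genes), and Grem1 and Inhbb were no longer called. Without tumor B2 the counts stayed at 11 and 1 (21.2% and 10.9% of all genes).

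The ligands Tgfb1, Inha and Inhbb were higher in tumors, as were Bmp2, Bmp5 and Bmp7, which had to differ to be tested. Tgfb1 ran from 35.0 to 131.4 CPM with a median of 54.8 CPM in tumors, against 6.44 to 27.1 CPM in lines, without overlap (log2 fold change 2.10, SE 0.37, adjusted p = 0.000231). Bmp2 ran from 4.68 to 44.5 CPM with a median of 7.503 CPM, against at most 1.04 CPM in lines. Bmp7 ran from 0.866 to 5.54 CPM and Bmp5 from 0.275 to 17.9 CPM, and no line held more than 2 reads of either. Inhbb ran from 13.9 to 146 CPM and overlapped the lines through JB97, at 26.0 CPM on this scale (2.44, SE 0.68, adjusted p = 0.00638).

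Of the matrix and antagonist genes, Ltbp2 ran from 46.9 to 438 CPM with a median of 173 CPM, against at most 14.8 CPM in lines (log2 fold change 5.40, SE 1.01, adjusted p = 0.000385). Bmp1 ran from 137 to 552 CPM, above all lines (2.25, SE 0.37, adjusted p = 0.000148), and Chrd from 11.3 to 47.1 CPM, likewise above all lines (2.64, SE 0.50, adjusted p = 0.000394). Grem1 ran from 3.49 to 341 CPM and overlapped the lines (4.39, SE 1.27, adjusted p = 0.00825). Ltbp2 and Grem1 passed the filter only with the tumors, where they were high. Leaving out tumor B14, B27, B28 or the one without a specimen number ended the call of Grem1, and leaving out B27 or B28 that of Inhbb. Tgfbr1, the receptor, ran from 87.3 to 170 CPM in tumors and from 31.3 to 83.7 CPM in lines (1.27, SE 0.23, adjusted p = 0.000338).

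Smad9 was the one member called lower in tumors, at 0.173 to 4.90 CPM with a median of 1.45 CPM, against 3.73 to 31.1 CPM in lines (log2 fold change -3.01, SE 0.73, adjusted p = 0.0026). Its range overlapped that of the lines, and with only the 5 tumors that share a specimen number with tumor DNA it was not called, nor were Bmp5, Grem1 and Inhbb. Smad2 and Smad4 were lower with an adjusted p under 0.01 but by less than 2-fold (-0.89, SE 0.13, adjusted p = 4.2e-05, and -0.63, SE 0.15, adjusted p = 0.0025). Of the members that separated BNC from NC lines, Ltbp1 ran from 13.2 to 301 CPM in tumors with a median of 39.97 CPM (lines 145 to 548 CPM, log2 fold change -2.08, SE 0.64, adjusted p = 0.0117). It was called lower in tumors by DESeq2 and when the tumor without a specimen number (lib22) or tumor B28 was left out. Fst ran from 8.07 to 62.0 CPM and Id2 from 21.8 to 163 CPM, both within or across the range of the lines.

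**Figure D4:**
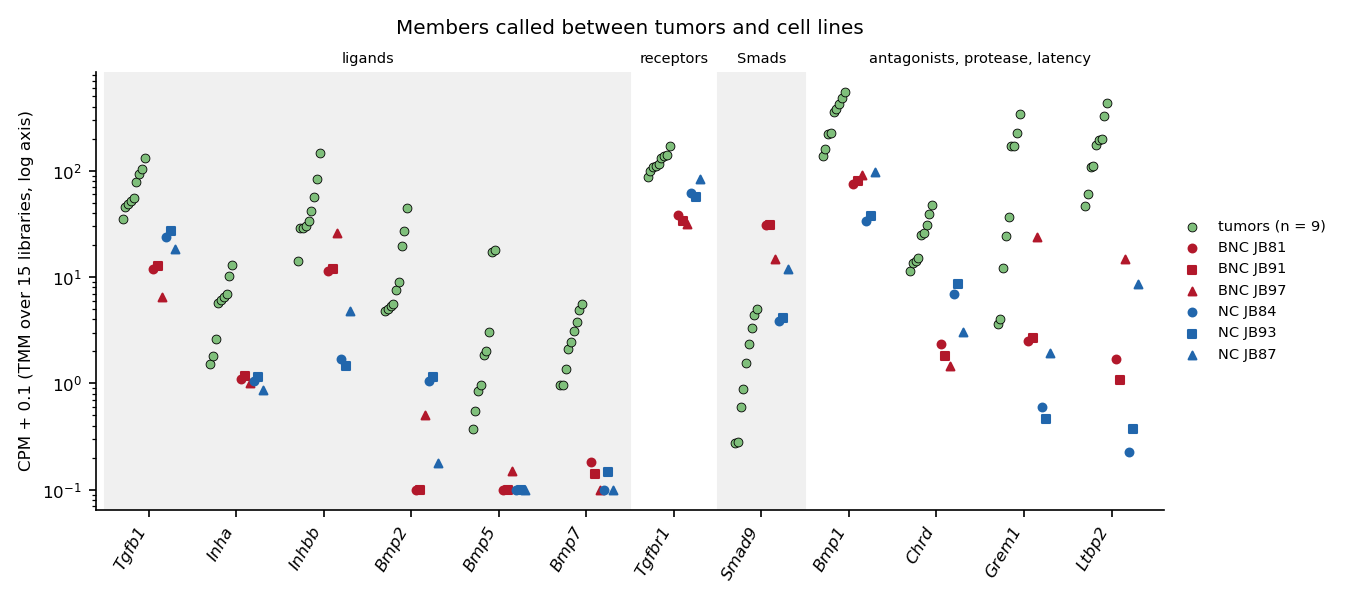
Level of the 12 members called between tumors and cell lines, as CPM + 0.1 on a log axis, with the 9 tumors in green in ascending order and the 6 lines in red (BNC) and blue (NC). Tumors lie above every line for Tgfb1, Inha, Bmp2, Bmp5, Bmp7, Bmp1, Tgfbr1, Chrd and Ltbp2. How many of all genes lie so was not counted. Of these members, Bmp2, Bmp5, Bmp7 and Ltbp2 entered the test only with the tumors. Tumors overlap the lines for Inhbb, Grem1 and Smad9, where 2 of the tumors exceed the lowest lines.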

How the data were processed

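RNA was measured in 6 cell lines and 9 tumors. Per the labels and the study's methods, poly-A libraries were read as 65-base single ends on a HiSeq 2500, aligned to mm10 with TopHat2 2.0.12, and the authors deposited raw read counts per Ensembl gene from HTSeq. The strand setting is not given in the sources used here, and exons of 15 members overlap another gene's (GENCODE vM21), 5 of them among the members plotted by line (Bmp4, Chrd, Fst, Smad5 and Tgfb3). The largest overlaps lay outside these 5. They covered 47.3% of exon bases of Fstl3, 46.7% of Bmp5 and 40.3% of Gdf5, each with a gene on the opposite strand.

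The members and the other gene lists were chosen with earlier results of these data known. Symbols matched 98.5% of identifiers. Columns of the 6 lines carry the line's name, which gives its genotype. The other 9 columns were taken as the tumors because they filled the remaining RNA samples and shared a number prefix, and 5 of them a specimen number with tumor DNA. One of them, lib22 here, has no specimen number. The 14 per-sample columns of DNA log2 ratios were not used.

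Differences were tested with edgeR 4.0.16 in R 4.3.3 (TMM, filterByExpr with a minimum count of 10, glmQLFit and glmQLFTest) over all genes, with Benjamini-Hochberg adjustment. CPM used TMM-scaled totals, and levels per kilobase used merged GENCODE exons. DESeq2 1.42.0, other filters and scalings, summed close pairs, the column prefix, replicate numbers and leaving out each library were alternatives. The 19 members plotted by line are those with an adjusted p under 0.05, those without overlap and over 2-fold, and the most abundant per kilobase of ligands, receptors, Smads, Id genes, and antagonists with latency proteins, and from each other list the text names genes under 0.05, at most 4. The fit was tested on simulated counts. Replicate numbers did not pair the lines: deviations from group means correlated by 0.10 for JB81 with JB84 and by -0.069 for JB91 with JB87, and JB97, numbered 2 or 3, by 0.082 with JB87 or by -0.077 with JB93.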

Additional observations from a re-analysis of the deposited data

Results flagged for a closer look

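Among the 44 members in the 9 tumors, on log2(CPM + 1), 1 gene had a tumor that stood apart. Gdf15, a stress-induced ligand, was at 5.14 CPM in tumor B27 against 1.09 CPM in the next tumor and a median of 0.416 CPM. The gap to the next tumor was 0.608 of the whole range, over the 0.493 that Dixon's test sets for 9 samples. Chance flags about 1 in 20 groups, and 44 were examined. With B27 left out, Gdf15 was called lower in tumors than in lines.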

How the results depend on the processing

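Ltbp1 stayed between 1.54 and 1.78 on the log2 scale over the alternatives, while the counts of calls moved. Gdf6, Bmpr1b, Nog and Grem1 had no value with at least 10 counts in every line, nor Gdf6 by DESeq2 on 6 lines. Leaving out 1 line gave 0 to 13 members called (1 as reported), 0 to 24 with an adjusted p under 0.05 (6 as reported) and 0 to 34 of the other pathway and response genes (11 as reported). DESeq2 gave 9, 17 and 24 of these (19.2% of all genes under 0.05), and with close pairs summed 3 and 5. Summing close pairs in edgeR gave 0, 0 and 0 with 2 samples a group. With the replicate numbers as a replicate block, the counts were 0, 0 and 0 with JB91 and JB97 both numbered 2, and 0, 1 and 2 with JB97 as number 3 (3.75% of all genes under 0.05). The column prefix as a covariate gave 0, 1 and 1 (2.20%). At an adjusted p under 0.05 and more than 2-fold, 4 members were called (11.6% of all genes). Library size as the only scaling moved the median of all genes to -0.14, left 29 of 40 members positive and turned the sign of Inha and Smad2. Inha, Inhba, Bmp6, Acvr1, Acvr2a, Smad2, Smad3, Smad7, Fstl3 and Ltbp2, none under an adjusted p of 0.05 as reported, changed sign under at least 1 alternative. The cause of these shifts was not tested. In tumors against lines, 8 to 14 members were called over the alternatives (by DESeq2 20.3% of all genes were higher and 7.44% lower, and with 5 tumors 16.9% and 9.46%), and the 5 tumors with a DNA specimen number gave 8, without Smad9. Depth limits Bmp2, Bmp5, Bmp7 and Gdf5 in the lines.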

Other observations

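Contractile genes that respond to TGF-beta split the lines as several members did, and are named here after their values were seen. Acta2, which encodes smooth muscle actin, was at 3001, 3234 and 2154 CPM in JB81, JB91 and JB97 and at 736 CPM in JB87, but at 0.746 CPM in JB84 and 1.59 CPM in JB93 (log2 fold change 3.51, SE 2.29, edgeR adjusted p = 0.307). Tagln, an actin-binding protein of smooth muscle, was at 208, 218 and 531 CPM in the BNC lines, at 118 CPM in JB87 and at 0.611 CPM or less in JB84 and JB93 (3.02, SE 1.97, adjusted p = 0.307). In the 9 tumors Acta2 ranged from 48.0 to 907 CPM.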
